A study of Mus musculus and Homo sapiens with 22 samples.

Results

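PROX1 binding was examined at 10 genes that encode mesenchymal and epithelial-to-mesenchymal transition (EMT) transcription factors: Prrx1, Prrx2, Twist1, Twist2, Snai1, Snai2, Zeb1, Zeb2, Tcf21 and Meox1. A peak was assigned to a gene when its summit lay in the gene body or within 50 kb of it. The 10 genes stood among 21938 protein-coding genes of the mouse annotation and 20033 of the human annotation. By this rule they held 39 of 50159 peaks in mouse liver, 75 of 40531 peaks in mouse embryonic fibroblasts (MEFs) and 10 of 14369 peaks in human Hep3B cells, where the human genes were used. The lists have different floors of the deposited area (500 in liver, 200 in the cultures). With an area of at least 500 in every list the counts were 39 of 50159, 32 of 16299 and 4 of 6239 peaks. The order of liver and MEFs turned in number, but not as a share of the peaks kept. Among the 14369 top peaks of each list the counts were 7, 22 and 10.

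EMT transcription factors switch cells from an epithelial state, with tight junctions and E-cadherin, to a migratory mesenchymal state. Snail (Snai1), Slug (Snai2), Zeb1 and Zeb2 are repressors that bind E-boxes in epithelial genes, and the Twist proteins are basic helix-loop-helix factors of the mesoderm. Prrx1, Prrx2, Tcf21 and Meox1 are best known as factors of the embryonic mesenchyme and of fibroblast-like cells, whereas hepatocytes are epithelial. PROX1 is a homeodomain factor of the hepatocyte and lymphatic endothelial lineages.

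The measurements came from CUT&RUN, in which an antibody tethers a nuclease to chromatin and the released fragments are sequenced. Livers of untreated wild-type C57BL/6J mice aged 2 to 3 months gave 5 samples with a rabbit antibody to endogenous PROX1 and 5 with IgG. MEFs from C57BL/6N embryos at E13.5 carried lentiviral rtTA and tetO-FLAG-mmProx1, received doxycycline at 2 µg/ml for 2 days, and gave 3 samples with a FLAG antibody and 3 with IgG. Hep3B, an established human hepatocellular carcinoma line, carried pLIX-Puro-hsPROX1, was puromycin-selected, received the same dose of doxycycline for 2 days, and gave 3 FLAG and 3 IgG samples. No FLAG sample came from cells without the overexpressed factor. Each peak list pools the antibody samples of 1 group, so depth per sample is unknown, no spread between replicates exists, and no test was run. The IgG samples form no list of their own here, so no IgG value stands beside a peak. Liver differs from both cultures in tissue, in antibody and in whether the factor was endogenous, and MEFs differ from Hep3B in species and cell type, so the parts of these in a difference cannot be told apart. Of 8 hepatocyte marker genes, 8 had a promoter peak in liver, 1 in MEFs (Apob) and 1 in Hep3B (Cps1). Of 8 fibroblast marker genes, 1 had one in liver (Pdgfra), 6 in MEFs and 1 in Hep3B (Col1a1). For scale, a promoter peak was held by 56.5% of all protein-coding genes for the MEF list, 45.2% for Hep3B and 28.3% for liver. The liver count of hepatocyte markers and the MEF count of fibroblast markers stood above these shares. Both Hep3B counts stood below theirs, and no marker count was tested against a share. The marker counts are of binding, and no file measures expression, so the labelled cell types could not be checked by RNA.

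The sequences around the promoter summits are given first, because the lists are compared mainly at promoters. Each runs 5′ to 3′ on the strand of the gene, with 50 bases on each side of the summit unless a shorter length is stated, and capitals mark letters that were searched for on both strands. These were the PROX1 hexamers AAGACG and AAGGCG, the PROX1 core AGNCGNCT, which can overlap them, the nuclear receptor hexamer AGGTCA, the CCAAT box ATTGG and the E-box CAGGTG, the site of Snail and ZEB proteins. The MEF summit at the gene for Snail comes from mm10 chr2:167538014-167538114, on the plus strand.
Snai1 in MEFs: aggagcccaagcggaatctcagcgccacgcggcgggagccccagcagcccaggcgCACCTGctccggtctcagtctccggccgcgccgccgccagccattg
The promoter of Slug was bound in all 3 lists as deposited, and its mouse summits come from mm10 chr16:14705796-14705881 (liver, cut to 86 bases) and chr16:14705452-14705552 (MEFs), on the plus strand.
Snai2 in liver: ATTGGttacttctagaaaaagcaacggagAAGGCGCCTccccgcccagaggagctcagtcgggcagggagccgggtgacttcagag
Snai2 in MEFs: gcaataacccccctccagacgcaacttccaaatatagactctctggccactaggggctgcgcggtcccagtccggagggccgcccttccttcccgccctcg
A further liver peak inside Snai2, the second strongest liver peak at the 10 genes, had its summit window at mm10 chr16:14707413-14707513 and was added after its value was seen.
Snai2 intron in liver: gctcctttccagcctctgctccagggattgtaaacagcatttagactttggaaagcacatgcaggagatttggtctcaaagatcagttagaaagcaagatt

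The remaining promoter summits shown are those of the MEF list, from mm10 chr12:33957529-33957629 for Twist1, chr1:91801895-91801995 for Twist2 and chr2:30834466-30834566 for Prrx2, on the plus strand, and chr1:163314561-163314661 on the minus strand for Prrx1.
Twist1 in MEFs: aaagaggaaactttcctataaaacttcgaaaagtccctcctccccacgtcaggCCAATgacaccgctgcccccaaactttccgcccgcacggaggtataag
Twist2 in MEFs: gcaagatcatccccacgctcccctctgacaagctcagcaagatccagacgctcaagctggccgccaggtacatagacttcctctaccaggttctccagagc
Prrx1 in MEFs: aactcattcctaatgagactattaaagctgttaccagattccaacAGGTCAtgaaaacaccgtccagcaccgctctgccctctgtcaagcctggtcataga
Prrx2 in MEFs: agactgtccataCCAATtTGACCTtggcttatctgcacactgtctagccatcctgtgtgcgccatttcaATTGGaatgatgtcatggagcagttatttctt
The strongest peaks of the MEF and Hep3B lists among those assigned to the 10 genes both fell in the window of Prrx2, but at promoters of neighbouring genes. They are shown from mm10 chr2:30807685-30807785 and hg38 chr9:129642294-129642394, on the plus strand.
Prrx2 window in MEFs, at Ntmt1: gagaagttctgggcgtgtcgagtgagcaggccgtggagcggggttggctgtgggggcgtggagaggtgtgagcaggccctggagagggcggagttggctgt
PRRX2 window in Hep3B, at ASB6: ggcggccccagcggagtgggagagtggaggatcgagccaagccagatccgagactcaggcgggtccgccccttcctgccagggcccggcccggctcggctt
In these windows the Snai1 summit of MEFs held the E-box, read as CACCTG on the gene strand and starting 5 bases after the summit. The AGGTCA hexamer was found at Prrx1 and Prrx2, and the CCAAT box at Twist1, Prrx2 and the liver summit of Snai2. The PROX1 core and an overlapping AAGGCG were found at the liver summit of Snai2, in the form AGGCGCCT.

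In MEFs with overexpressed Prox1, 8 of the 10 genes had a promoter peak, defined as a summit within 1 kb of an annotated transcription start site (TSS). Those without were Tcf21 and Meox1. Among the 14369 top peaks of the MEF list, the length of the Hep3B list, 5 genes kept the call, and Prrx2, Twist2 and Snai2 lost it. No share over all genes is given for this shortened list, and the MEF share below is for the full list. In liver, Snai2 and Zeb1 had a promoter peak, and in Hep3B SNAI1 and SNAI2 had one. Over all protein-coding genes the shares with a promoter peak were 56.5% in MEFs, 28.3% in liver and 45.2% in Hep3B, so a high count in MEFs and a lower count in liver is also the order of the whole lists. In Hep3B, 2 of 10 genes stood below the share over all genes. With 10 genes, no count here was tested against those shares.

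Across the wider window, all 10 genes held a peak in MEFs, 9 in liver and 6 in Hep3B. The shares over all protein-coding genes were 81.3%, 69.2% and 71.9%, in that order. The exception in liver was Twist1, whose nearest liver summit lay 529734 bp from the gene. In Hep3B the genes without a peak were PRRX1, TWIST1, TWIST2 and ZEB1, with the nearest summit 130617, 449929, 408301 and 73791 bp from the gene body, respectively. When only peaks whose nearest protein-coding TSS was the member's were counted, 10 genes held one in MEFs, 6 in liver and 3 in Hep3B. No share over all genes is given under this narrower rule, and the shares above do not apply to it. The 10 windows together held 4.97 peaks per 100 kb in MEFs, against 3.06 over the windows of all protein-coding genes. The corresponding densities were 2.58 against 3.36 in liver and 0.589 against 1.17 in Hep3B. Prrx2 (21) and Snai1 (13) carried much of the MEF total of 75, and the medians per gene were closer, at 5 peaks per member against 4 over all genes in MEFs, 2.5 against 3 in liver and 1 against 1 in Hep3B.

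**Figure D1:**
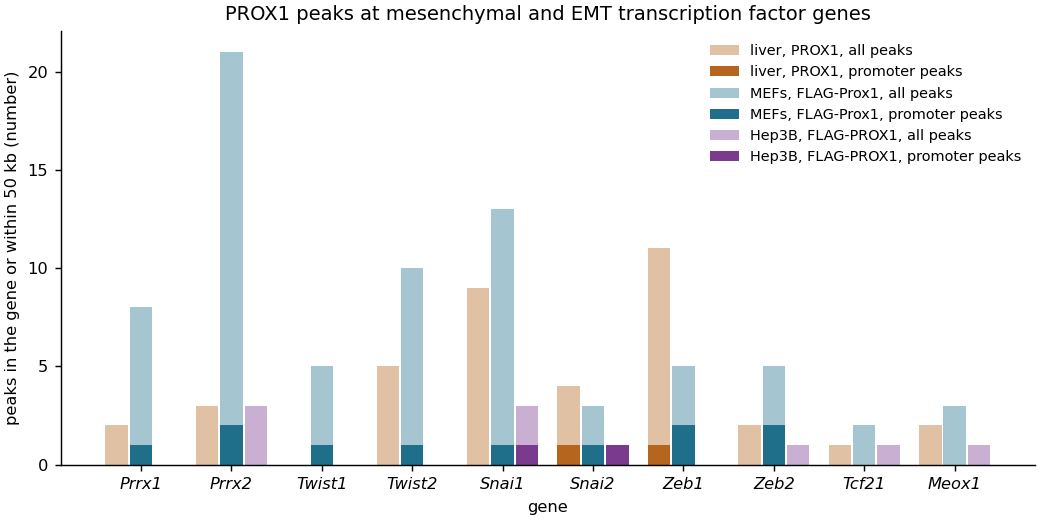
Bars give the number of peaks assigned to each of the 10 genes in the liver, MEF and Hep3B lists, with promoter peaks in full colour and all peaks in pale colour. Prrx2 carried 21 peaks in MEFs against 3 in liver, and Zeb1 carried 11 in liver against 5 in MEFs.

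The 3 lists differed in where their peaks fell. In MEFs, 11 of the 75 peaks were promoter peaks, 21 more lay in gene bodies, 17 upstream and 26 downstream. In liver, 2 of 39 were promoter peaks, 12 more lay in gene bodies, 7 upstream and 18 downstream. The 10 Hep3B peaks comprised 2 at promoters, 6 upstream, 2 downstream and 0 elsewhere in a gene body. A further 11 MEF, 6 liver and 4 Hep3B peaks lay within 1 kb of a TSS of another gene. Over whole lists, 37.8% of MEF peaks, 20.4% of liver peaks and 66.3% of Hep3B peaks had their summit that close to any TSS. Not every peak in a window was closest to the gene it was assigned to. The nearest protein-coding TSS belonged to the assigned gene for 56 MEF peaks (74.7%), 27 liver peaks (69.2%) and 4 Hep3B peaks (40%).

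**Figure D2:**
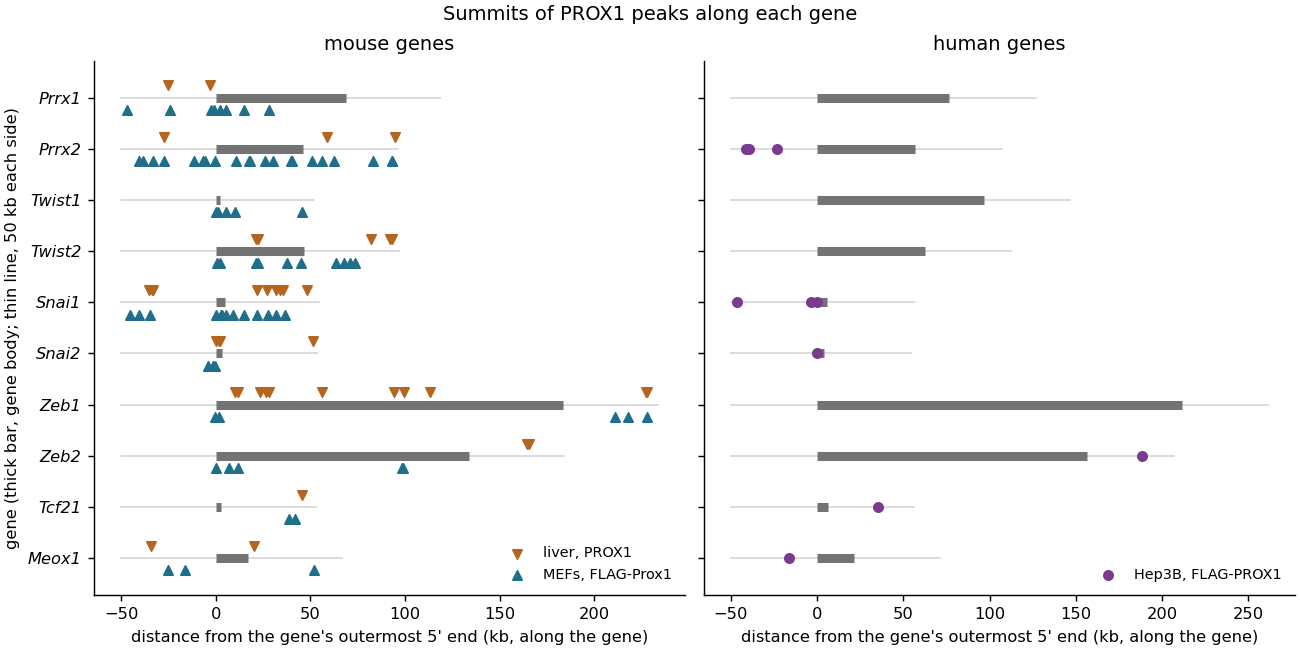
Each row is a gene, with its body as a thick bar and 50 kb on each side as a thin line, and symbols mark peak summits by their distance from the outermost 5′ end in kb. MEF summits gather at the 5′ ends of Prrx1, Twist1, Snai1 and Snai2, the 9 liver summits of Snai1 leave the gene itself empty, and PRRX1, TWIST1, TWIST2 and ZEB1 carry no Hep3B summit.

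Snai1 and Snai2 encode the Snail and Slug repressors of E-cadherin. The Snai1 promoter was bound in MEFs by a wide peak at chr2:167537707-167540643, which reached from upstream of the TSS into the gene and had its summit 131 bp upstream of the TSS. Its −log10 p at the summit was 7.16, which placed it at the 76.7th percentile of the MEF list, where the strongest peak is at 100. In Hep3B the SNAI1 promoter peak had a −log10 p of 7.02 and a percentile of 66.4. The Hep3B list held a peak at the promoter of RNF114, 46690 bp upstream of SNAI1, at a percentile of 62.4, and another peak 3730 bp upstream of SNAI1, at chr20:49978970-49979663 and a percentile of 49.3, whose summit window contained the E-box.

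Liver had no peak at the Snai1 promoter. Its 9 peaks in the window began 21753 bp from the TSS. Of these, 6 lay downstream, in the introns of the non-coding gene Gm11476, and 3 upstream in Rnf114, a ubiquitin ligase gene. The strongest, chr2:167573293-167573908, had a −log10 p of 14.4 and a percentile of 69.8. MEFs had 13 peaks in the same window, and their density of 12.4 per 100 kb was above that of 98% of protein-coding genes. The strongest MEF peak of the window, at the 95.1st percentile, was not at Snai1 but at chr2:167492693-167493743, the promoter shared by Spata2 and Rnf114. Liver and MEF peaks overlapped at 4 places around Snai1. At 2 of the downstream places the summits lay 14 bp and 9 bp apart.

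Snai2 was the only member with a promoter peak in all 3 lists as deposited. The MEF call was lost among the 14369 top peaks, and the Hep3B call with a summit q below 0.01 or an area of at least 500. In liver, the peak at chr16:14705228-14707008 had its summit 6 bp from the TSS, a −log10 p of 15 and a percentile of 74.5. Past it, the gene body held 2 stronger peaks, at chr16:14707031-14707730 in an intron (−log10 p 19.5, percentile 93.9) and at chr16:14708059-14708407 in a coding exon (percentile 80.4). The remaining liver peak lay 51628 bp downstream at a percentile of 15.4. In MEFs, the promoter peak at chr16:14704963-14706771 overlapped the liver peak over 1544 bp, but its summit lay 344 bp away, 350 bp upstream of the TSS, at a percentile of 52.9. The other 2 MEF peaks were both upstream, with the strongest 4294 bp from the TSS at a percentile of 71 and the other 1569 bp away at 15. The gene body past the promoter peak carried no MEF summit. In Hep3B, the single SNAI2 peak had its summit 66 bp from the TSS with a −log10 p of 4.96, near the bottom of that list at a percentile of 7.06, and a TSS of a further annotated gene lay within 1 kb of it. In a local alignment to the mouse promoter, the human summit base fell 17 bp from the MEF summit and 327 bp from the liver summit, over 75 aligned columns with 56 identical bases.

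**Figure D3:**
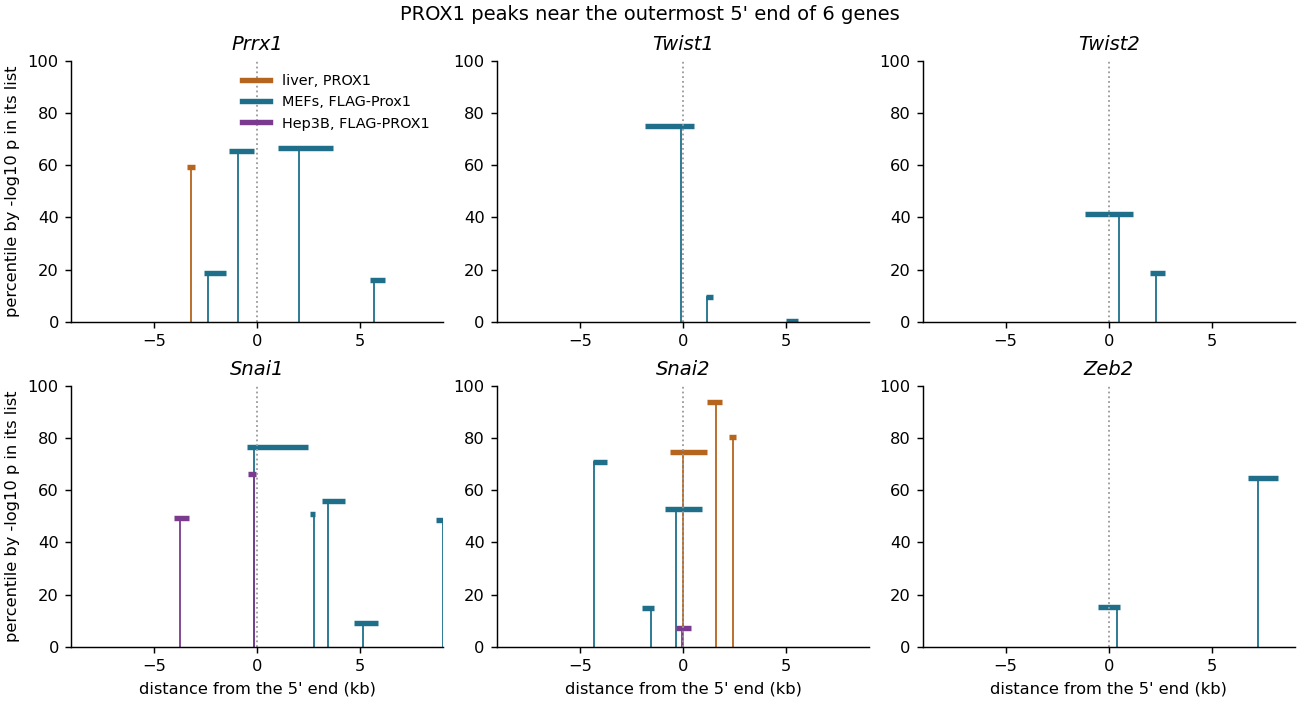
Peaks within 9 kb of the outermost 5′ end of 6 genes are drawn as horizontal bars over their full length, with a vertical line at the summit, at the height of their percentile by −log10 p in their own list. Snai2 carries peaks of all 3 lists around its 5′ end, with liver peaks at percentiles of 74.5, 93.9 and 80.4, while Twist1, Twist2 and Zeb2 carry MEF peaks alone in this stretch.

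Twist1 and Twist2 encode closely related basic helix-loop-helix factors of the mesoderm and of dermal and cranial mesenchyme. The Twist1 promoter was bound in MEFs at chr12:33955807-33958189, with the summit 92 bp upstream of the TSS, a −log10 p of 7.08 and a percentile of 75.3. The other 4 MEF peaks of the Twist1 window were among the weakest of the list, with percentiles from 0.333 to 9.57. Neither liver nor Hep3B had a peak in the Twist1 window. At Twist2, the MEF promoter peak at chr1:91800315-91802625 had its summit in the coding exon, 475 bp past the TSS, at a percentile of 41.4. A TSS of the overlapping gene Gm29100 was within 1 kb as well. Liver and MEFs shared 2 Twist2 peaks, in exons of the non-coding gene Gm29101 inside the Twist2 locus. The pair with the higher MEF rank, at chr1:91823175-91823931, stood at the 79.5th percentile in MEFs and the overlapping liver peak at the 28.3rd. The 3 other liver peaks of Twist2 lay downstream of the gene, 81899 to 93072 bp from the TSS, and the nearest of them, chr1:91883094-91883727, was the strongest (percentile 62).

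Prrx1 and Prrx2 encode paired-related homeodomain factors of limb and craniofacial mesenchyme. At Prrx1, MEFs had 8 peaks, of which 4 clustered from 2360 bp upstream to 5632 bp past the 5′ end. The strongest, chr1:163310046-163312687, lay in the intron 1996 bp past the TSS (−log10 p 6.67, percentile 66.6), and the promoter peak, chr1:163313845-163315088, had its summit 901 bp upstream (−log10 p 6.62, percentile 65.6). Liver had 2 Prrx1 peaks and both were upstream of the gene. The nearer, chr1:163316736-163317117, stood 3221 bp from the TSS at a percentile of 59.3, and the farther 25351 bp away at 47.4. Neither overlapped a MEF peak.

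Prrx2 carried the most peaks of any member in MEFs, 21, and their density of 14.4 per 100 kb was above that of 99.1% of protein-coding genes. Only 6 of the 21 had Prrx2 as the nearest coding gene, in a stretch that also holds Ntmt1, Asb6 and the prostaglandin E synthase gene Ptges. The Prrx2 promoter peaks were modest in rank: chr2:30834348-30834593, with its summit 456 bp upstream, stood at a percentile of 36.5, and chr2:30844724-30845864, 264 bp past an alternative TSS, at 24.8. The strongest peak, chr2:30807465-30808800, lay 91 bp from the TSS of Ntmt1, an N-terminal methyltransferase gene, and reached a −log10 p of 11.4 and a percentile of 99.9. Liver had a peak at the same place, with the summit 29 bp away, at a percentile of 24.1. The other 2 liver peaks were downstream in Ptges, at chr2:30893353-30893673, the strongest of the 3 (percentile 24.4), and at chr2:30929653-30929970 (4.63). In Hep3B the 3 PRRX2 peaks were likewise at the neighbours: chr9:129641963-129642676 lay 175 bp from the TSS of ASB6 at a percentile of 88, and 2 peaks at NTMT1 stood at 57.6 and 17.

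Zeb1 and Zeb2 encode the ZEB repressors, large proteins with zinc fingers at either end and a homeodomain. At Zeb1, liver and MEFs bound different places. The liver list held 11 peaks, of which 9 lay inside the gene, and its strongest, chr18:5603553-5604174, was also the strongest liver peak of any member (−log10 p 20.7, percentile 96.3). That peak counts as a promoter peak through the TSS of a non-coding transcript of Zeb1 67 bp away. It lay 10075 bp from the nearest protein-coding TSS, within an intron, and with coding TSSs alone Snai2 was the only member bound at its promoter in liver. In MEFs there were 2 promoter peaks. The stronger, chr18:5593130-5594111, had its summit inside the gene, 143 bp from an internal TSS (percentile 66.4). The other, chr18:5591216-5592134, had its summit 400 bp upstream of the outermost 5′ end (percentile 36.1). The other 3 MEF peaks of Zeb1 lay downstream of the gene, with the strongest MEF peak of the window, chr18:5802795-5803756 (percentile 78.2), among them, and 1 of them overlapped a liver peak. These MEF promoter peaks also lay within 1 kb of TSSs of the annotated genes Gm10125 and Gm2238, and fragments at such places cannot be assigned to a single gene. Liver had more Zeb1 peaks than MEFs in the lists as deposited, 11 against 5, but among the 14369 top peaks of each list both had 2.

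At Zeb2, MEFs had 5 peaks and all lay in the gene. The stronger promoter peak, chr2:45109204-45110663, had its summit 69 bp from an internal TSS (−log10 p 6.57, percentile 64.6), and the other, chr2:45116857-45117940, lay 377 bp past the outermost TSS at a percentile of 15.3. The stronger was also within 1 kb of a TSS of Zeb2os, annotated beside Zeb2. Zeb2 has 29 annotated TSSs in mouse, against 1 each for Twist1, Snai1 and Snai2, so it offers more places that count as a promoter. Liver had 2 neighbouring Zeb2 peaks, 70016 and 70983 bp from the nearest Zeb2 TSS and closer to Gtdc1, a glycosyltransferase-like gene, at percentiles of 81.5 and 83.7. The single Hep3B peak of the ZEB2 window, at a percentile of 73.7, lay 38 bp from the TSS of GTDC1.

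Tcf21, a basic helix-loop-helix factor of visceral mesenchyme and of fibroblasts of several organs, and Meox1, a homeodomain factor of the somites, had no promoter peak in any list. Tcf21 had 1 liver peak (percentile 34), 2 MEF peaks (47.1 and 30.5) and 1 Hep3B peak (19.2), all between 34856 and 45358 bp downstream of the TSS. The liver and Hep3B peaks were closer to a TSS of Tbpl1 (TBPL1 in human). Meox1 had 2 liver peaks at percentiles of 67.8 and 44.8, of which the nearer lay 19996 bp away. Its 3 MEF peaks stood at 78.9, 77.7 and 51.9, with the nearest 16030 bp upstream, and its Hep3B peak at 48.7, with the summit 16153 bp upstream. No Tcf21 or Meox1 peak overlapped between liver and MEFs.

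Comparing the promoters between the 2 mouse lists gene by gene, Prrx1, Prrx2, Twist1, Twist2, Snai1 and Zeb2 were bound in MEFs and not in liver. Snai2 and Zeb1 were bound in both, none in liver alone, and Tcf21 and Meox1 in neither. Over all protein-coding genes, 32.7% (7174 of 21938) had a promoter peak in MEFs and not in liver, 973 genes in liver alone and 5226 in both. At the level of peaks, 9 of 39 liver peaks of the members (23.1%, 95% Wilson interval 12.6 to 38.3) overlapped a MEF peak, against 18.9% of the liver list. Seen from MEFs, 9 of 75 peaks (12%, interval 6.44 to 21.3) overlapped a liver peak, against 21.4% of that list. Away from the members' promoters, 8 of 37 liver peaks were shared (21.6%, interval 11.4 to 37.2), against 9.95% of the list away from any TSS. For MEFs it was 8 of 64 (12.5%, interval 6.47 to 22.8), against 14%. These include 6 liver and 11 MEF peaks at a TSS of another gene, so the comparison is not like for like. At promoters, 1 of 2 liver peaks (against 53.8%) and 1 of 11 MEF peaks (against 33.6%) were shared. The intervals cover counting error over peaks only. The shared peaks belonged to Snai1 (4), Twist2 (2), Prrx2 (1), Snai2 (1) and Zeb1 (1), and the Snai2 pair was the only one at a promoter of the assigned gene.

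**Figure D4:**
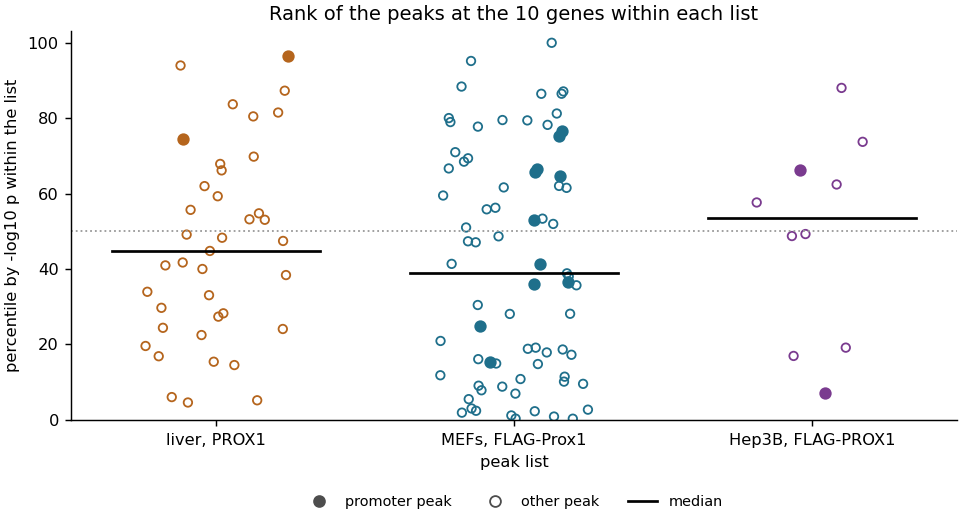
Each point is a peak assigned to the 10 genes, placed at its percentile by −log10 p within its own list, with promoter peaks filled, other peaks open, and a black line at the median. The medians stood at 44.8 (liver), 38.9 (MEFs) and 53.4 (Hep3B), where 50 is the middle of a list, and the points spread over nearly the whole range.

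In rank, the peaks at these genes were spread through each list. The median percentile lay below the middle of the list in liver (44.8) and MEFs (38.9) and above it in Hep3B (53.4). Percentiles above 90 were reached by 2 liver peaks (at Zeb1 and inside Snai2), 2 MEF peaks (at Ntmt1 and at Spata2 and Rnf114) and 0 Hep3B peaks, so neither of the MEF peaks was at a promoter of a member. Percentiles of 25 or below were found for 10 liver, 30 MEF and 3 Hep3B peaks. The 11 MEF promoter peaks of the members had a median percentile of 52.9, against 63.9 for all promoter peaks of the MEF list. Their median width was 1244 bp, against 926 bp for those peaks. The 2 liver promoter peaks had a median percentile of 85.4, against 37.3, and the 2 Hep3B ones 36.7, against 57.5. Away from the members' promoters the medians were 41.7 in liver, 36.9 in MEFs and 53.4 in Hep3B. Peaks of the lists away from any TSS stood at 53.1, 43.5 and 38.2. The members' peaks there include some at a TSS of another gene, 4 of 8 in Hep3B.

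The searched letters were not frequent at the summits. Within 50 bp of the summit, a PROX1 hexamer (AAGACG or AAGGCG) was present in 1 of 39 peaks of liver (2.56%, against 3.52% of that list), in 3 of 75 of MEFs (4%, against 4.02%) and in 1 of 10 of Hep3B (10%, against 7.65%). The liver peak with the hexamer was the Snai2 promoter. The E-box CAGGTG was present in 5 liver peaks (12.8%, interval 5.6 to 26.7), 9 MEF peaks (12%, 6.44 to 21.3) and 2 Hep3B peaks (20%, 5.67 to 51). The shares of the lists were 7.81%, 7.91% and 8.6%. These intervals cover counting error over peaks only. Peaks of the same window may not be independent, so the intervals describe the counts and test nothing. AGGTCA was present in 8 liver peaks (20.5%, interval 10.8 to 35.5, against 16.5%) and 8 MEF peaks (10.7%, interval 5.5 to 19.7, against 6%). In Hep3B AGGTCA was found in 0 of 10 peaks (upper bound of the interval 27.8%), against 4.99% of the list. The CCAAT box was present in 5 liver peaks (12.8% against 14.3%), 7 MEF peaks (9.33%, interval 4.59 to 18, against 16.3%) and 1 Hep3B peak (10% against 17%). Of the 11 MEF promoter summits of the members, 7 held none of the letters. A match describes the sequence and does not show which protein bound it.

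Other genes of the EMT programme were counted from lists written for this purpose. Beside these counts stand the shares over all protein-coding genes: 56.5% in MEFs, 28.3% in liver and 45.2% in Hep3B. Of 16 further EMT and mesenchymal transcription factors, 12 had a promoter peak in MEFs, 2 in liver (Tcf3 and Tcf4) and 4 in Hep3B (Tcf3, Foxc1, Sox4 and Etv4). The highest-ranked in MEFs were Etv4, Tcf3 and Foxc1, at percentiles of 98.1, 97.1 and 95.8, above any promoter peak of the 10 members. Of 16 mesenchymal structural and surface genes, 15 had a promoter peak in MEFs, led by Pdgfra (95), Vim (77.1) and Fn1 (76.7), 4 in liver, led by Fn1, Mmp14 and Pdgfra, and 4 in Hep3B, led by PDGFRB, S100A4 and FN1. Fn1, the fibronectin gene, was among the bound in all 3 lists, with percentiles of 42.2 in liver and 22.5 in Hep3B.

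The pathway upstream of these factors and their epithelial targets gave other counts, beside the same shares over all genes (56.5%, 28.3% and 45.2% in MEFs, liver and Hep3B). Of 12 genes of TGF-β signalling, a major inducer of Snai1 and Zeb factors, all 12 had a promoter peak in MEFs, 6 in liver and 9 in Hep3B. SKIL, which encodes the SMAD co-repressor SnoN, led the group in Hep3B at the 99.8th percentile, and Skil in liver at the 99.3rd. The next in rank were SMAD3 and SMAD2 in Hep3B and Ski and Smad7 in liver, and MEFs were led by Smad2, Tgfbr1 and Smad7, which encode SMAD proteins and a TGF-β receptor. Of 16 epithelial genes, 8 had a promoter peak in liver, 8 in MEFs and 13 in Hep3B. Cdh1, the E-cadherin gene that Snail and ZEB proteins repress, was bound at its promoter in liver and Hep3B and not in MEFs, and is named here after its values were seen. Ocln and Krt8 had the same pattern. Epcam, Ovol2 and Tjp1 went the other way between the mouse lists, with a promoter peak in MEFs and not in liver. The highest-ranked epithelial promoters were Krt8, Dsp and Cldn1 in liver, Elf3, Esrp2 and Cldn1 in Hep3B, and Esrp2, Elf3 and Tjp1 in MEFs. These lists differ in size and in their number of TSSs, and their counts were not tested against each other.

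**Figure D5:**
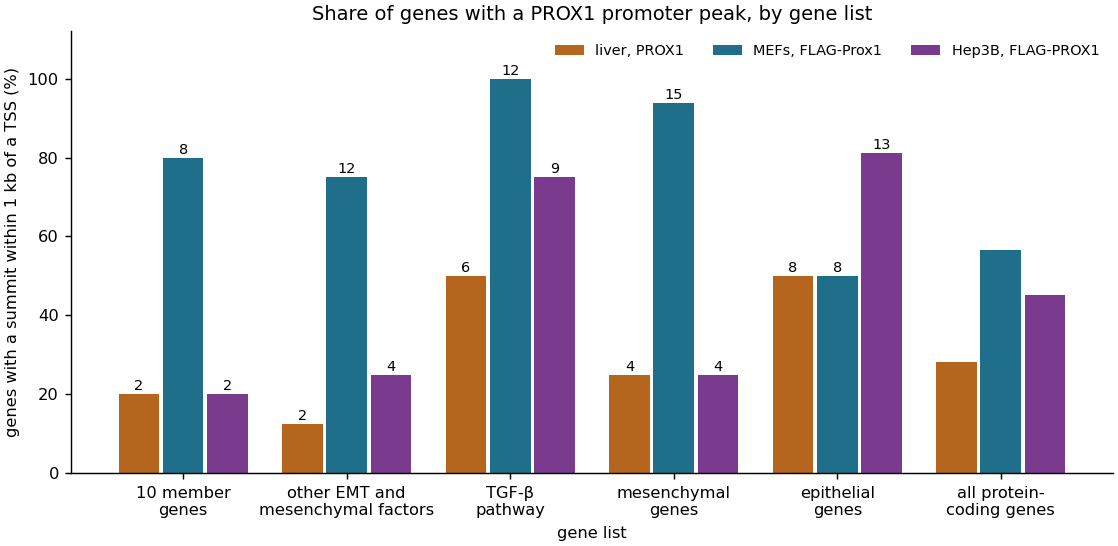
Bars give the percentage of genes in each gene list that had a promoter peak (summit no farther than 1 kb from a TSS), in the liver, MEF and Hep3B peak lists, with the number of genes above each bar and all protein-coding genes at the right. In MEFs 8 of the 10 members and 15 of 16 mesenchymal genes were bound, and in Hep3B 13 of 16 epithelial genes and 2 of the 10 members. The shares over all protein-coding genes were 56.5% in MEFs and 45.2% in Hep3B.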

How the data were processed

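CUT&RUN data were deposited as 3 peak lists (liver, MEFs, Hep3B), each pooling the antibody samples of a group. Per their methods, the authors trimmed reads, aligned them with Bowtie2 (2.4.2) to mm10 or hg38 and called peaks with Genrich (0.6.1), whose stated command names no control, although a legend in their supplement describes binding sites as found by comparison to IgG. IgG samples form no list of their own here. The deposited values are a score capped at 1000 by the authors' caller (not used), a signal (the area under the significance curve, at least 500 in liver and 200 elsewhere) and −log10 p and −log10 q at the summit. None was normalized between lists by the authors, so peaks were ranked by −log10 p within a list.

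Summits were placed against GENCODE M21 (mm10) and GENCODE 44 (hg38) with pandas (2.3.3) and pysam (0.24.0), and placement was tested on simulated data. Hep3B peaks off the assembled chromosomes, 8 in number, could be assigned to no gene but stayed in the ranks and list totals. The SNAI2 summit window was aligned with Biopython (1.88; local alignment, 2000 bp on each side of the mouse TSS). Intervals are 95% Wilson intervals and depth per sample is unknown.

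All 10 genes were described with the strongest promoter peak and the strongest peak of each list, with every peak where a list held at most 3, and with the 3 top promoters of each wider list. The members and lists were chosen with earlier results of these data known. Some summit sequences are not reported here, and windows in a UTR were cut to 30 of its bases or left out. Alternatives were other windows, thresholds, TSS sets and definitions of sharing.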

Additional observations from a re-analysis of the deposited data

How the results depend on the processing

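No paired analysis was possible because each list pools the samples of a group and carries no replicate, and for the same reason no replicate could be left out. Counts moved mostly with the number of peaks kept and with the window, and the causes were not tested. No share over all protein-coding genes is given under the changed settings, so the gene counts below stand without one. With the 14369 top peaks of each list, the members held 7 liver peaks at 3 genes and 22 MEF peaks, and 5 had a MEF promoter peak (Prrx2, Twist2 and Snai2 were lost). With an area of at least 500 everywhere, 39 liver peaks, 32 MEF peaks and 4 Hep3B peaks at 3 genes were left, so MEFs fell below liver, and 0 Hep3B promoters. With a summit q below 0.01, 1 Hep3B promoter was left (SNAI2 was lost). In a window of 10 kb there were 16 liver peaks at 5 genes, 43 MEF peaks and 3 Hep3B peaks at 2 genes, and in a window of 100 kb there were 62 liver and 23 Hep3B peaks. Counting peaks nearest to the member alone left 27 liver peaks at 6 genes, 56 MEF peaks at 10 genes and 4 Hep3B peaks at 3 genes. With TSSs of protein-coding transcripts, 1 liver promoter was left (Snai2). With a promoter of 0.5 kb the MEF peak of Prrx1 was lost. With summits within 100 bp, 5 peaks of each mouse list were shared. Over whole peaks, which vary in length, shares with letters rose, except for AAGACG in Hep3B. It stayed at 0 of 10 peaks, against 14.6% of the list. Some of the shares over whole peaks follow. In liver they were 48.7% (AGGTCA, against 46.8% of the list), 46.2% (ATTGG, against 55%) and 30.8% (CAGGTG, against 37.1%). In MEFs they were 14.7% (AAGACG, against 11.9%), 20% (AAGGCG, against 20.6%) and 13.3% (AGNCGNCT, against 11.7%). The other MEF shares were 41.3% (AGGTCA, against 36%), 65.3% (ATTGG, against 58.8%) and 49.3% (CAGGTG, against 41.4%). In Hep3B they were 50% (ATTGG, against 55.4%) and 70% (CAGGTG, against 43.2%). Within 100 bp, ATTGG in MEFs stood at 22.7%, against 28.1% of the list. For single members, 8 of 210 promoter calls and 68 of 210 peak counts moved.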

Other observations

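The miR-200 family, whose members repress Zeb1 and Zeb2 and are in turn repressed by them, lies in a pair of clusters. At the cluster of MIR200B, MIR200A and MIR429 the Hep3B list held a peak at hg38 chr1:1167193-1167608, with a summit 430 bp from the 5′ end of the MIR200B hairpin and 329 bp from that of MIR200A, at a percentile of 20.3. In mouse the nearest MEF summit lay 3094 bp from Mir429 (percentile 40.7) and the nearest liver summit 37199 bp from Mir200b (percentile 36.9). At the cluster of Mir200c and Mir141, which lies among densely packed genes, the window of 50 kb held 23 liver, 8 MEF and 3 Hep3B peaks, and the nearest summits lay 949, 5772 and 6685 bp from Mir141. The cell types differ in antibody, species and origin of the factor, and no comparison was made between them here.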
